A study of Homo sapiens with 14 samples.

Results

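Gene expression in HEK293T cells grown for 24 h with s4U was compared with that in cells grown without it, in mRNA that was not treated with acrylonitrile. s4U-RNA denotes the 2 libraries from cells given 50 µM s4U for 24 h, and Con-RNA the 2 libraries from cells given no s4U. All fragments assigned to a gene were summed, marked or not, and the 16718 genes with at least 20 fragments in at least 2 of these 4 libraries were tested, out of 57820 genes in the tables. The series holds 14 libraries, and the 4 used here come from its experiment on T-to-C conversion. HEK293T is an immortalized human embryonic kidney line that carries adenoviral and SV40 large T antigen genes. Acrylonitrile-treated RNA of cells with s4U (s4U-acrylonitrile-RNA) and without it (Con-acrylonitrile-RNA), 2 libraries each, is set beside the main comparison where named.

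s4U is a uridine with sulfur in place of an oxygen. Cells take it up through nucleoside transporters, phosphorylate it and build it into RNA as the RNA is made, so that new molecules can later be told from old ones by chemistry that changes how the base pairs. High or long exposure to s4U is known to disturb ribosomal RNA synthesis and to stress the nucleolus in cultured cells. For the labeling used here, the paper reports that prolonged culture with s4U inhibited cell growth, short of substantial cell death. Levels of an mRNA reflect both its synthesis and its decay, and mRNA 3′ ends are made by cleavage downstream of a poly(A) signal, commonly AATAAA or ATTAAA.

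The libraries held 15524028 and 17228999 fragments in s4U-RNA and 13102014 and 11860513 in Con-RNA, of which 85.8% and 88.3% in s4U-RNA and 90.6% in each Con-RNA library lay in annotated genes. Across genes, log2 CPM (fragments per 1000000, scaled by TMM) correlated at r = 0.977 between the s4U-RNA libraries, at 0.995 between the Con-RNA libraries and at 0.770 to 0.786 between the groups. The Con-RNA libraries differed by little more than counting noise (chi-square per degree of freedom 1.07), against 64.3 for the s4U-RNA libraries. No source states that replicates came from separate cultures. The p-values therefore reflect only how far these libraries spread, which may be technical. Of markers that the line is expected to carry, 9 of 9 had at least 1 fragment, with a summed level of 308 and 335 CPM in s4U-RNA and 380 and 379 CPM in Con-RNA, although PAX8 had only 2 fragments, in 1 Con-RNA library. In the test described below, 8 of them were measured, of which 3 were lower in s4U-RNA and 1 higher. PAX2 had 49 and 65 fragments in s4U-RNA and 349 and 333 in Con-RNA. LHX1 had 75 and 89 in s4U-RNA and 280 and 256 in Con-RNA, while EYA1 had 625 and 847 in s4U-RNA and 544 and 546 in Con-RNA. Summed blood markers reached 1.06 and 1.15 CPM in s4U-RNA and 2.54 and 2.55 CPM in Con-RNA, and CD3E and HBB were at 0. Fibroblast markers reached 31.1 and 38.4 CPM in s4U-RNA and 82.0 and 90.5 CPM in Con-RNA, with COL1A2 at 0, and most of this was COL1A1 (333 and 544 fragments in s4U-RNA and 1011 and 1013 in Con-RNA). Markers of the breast cancer line MCF7 reached 12.1 and 13.6 CPM in s4U-RNA and 58.6 and 60.8 CPM in Con-RNA, with AGR2 at 0. Nearly all of it was GREB1 (128 and 190 fragments in s4U-RNA and 753 and 707 in Con-RNA), while ESR1 had 9 and 7 fragments in s4U-RNA and 2 and 2 in Con-RNA. Neuronal markers summed to 111 and 127 CPM in s4U-RNA and 209 and 204 CPM in Con-RNA, with STMN2 at 0, but their members went both ways. NEFL had 312 and 517 fragments in s4U-RNA and 1134 and 1005 in Con-RNA, and NEFM 326 and 278 in s4U-RNA and 1418 and 1275 in Con-RNA. TUBB3 was higher, with 610 and 1068 in s4U-RNA and 136 and 116 in Con-RNA. Liver markers summed to 16.6 and 9.65 CPM in s4U-RNA and 17.5 and 18.9 CPM in Con-RNA, with 10 of 10 detected. In bulk RNA, fewer cells of a type and less RNA per cell cannot be told apart.

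Levels of many genes differed between s4U-RNA and Con-RNA. In edgeR's quasi-likelihood test, with the Benjamini-Hochberg adjusted p held under 0.05, 5952 genes were higher in s4U-RNA (35.6% of those tested) and 5932 were lower (35.5%). The changes were large: 3576 genes (21.4%) were more than 2-fold higher and 3968 (23.7%) more than 2-fold lower. Both s4U-RNA libraries lay on the same side of both Con-RNA libraries for 14698 genes (87.9%). The higher and lower calls balance under the TMM scaling used here. Without a composition factor, which shifts the median gene by −0.27 on the log2 scale, 4480 were higher and 6838 lower, so that 39.6% of calls were higher against 50.1%. With all fragments of the library as its size, a shift of −0.32, 4133 were higher and 6993 lower (37.1% higher). Absolute amounts of RNA per cell were not measured, so each fold change is relative to the typical gene of the library. Without Con-RNA replicate 1, 3693 genes were higher and 4216 lower, and without Con-RNA replicate 2, 3726 and 4258. Counts past 2-fold moved less, between 3173 and 3858 higher and between 3701 and 4350 lower without any single library.

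**Figure D1:**
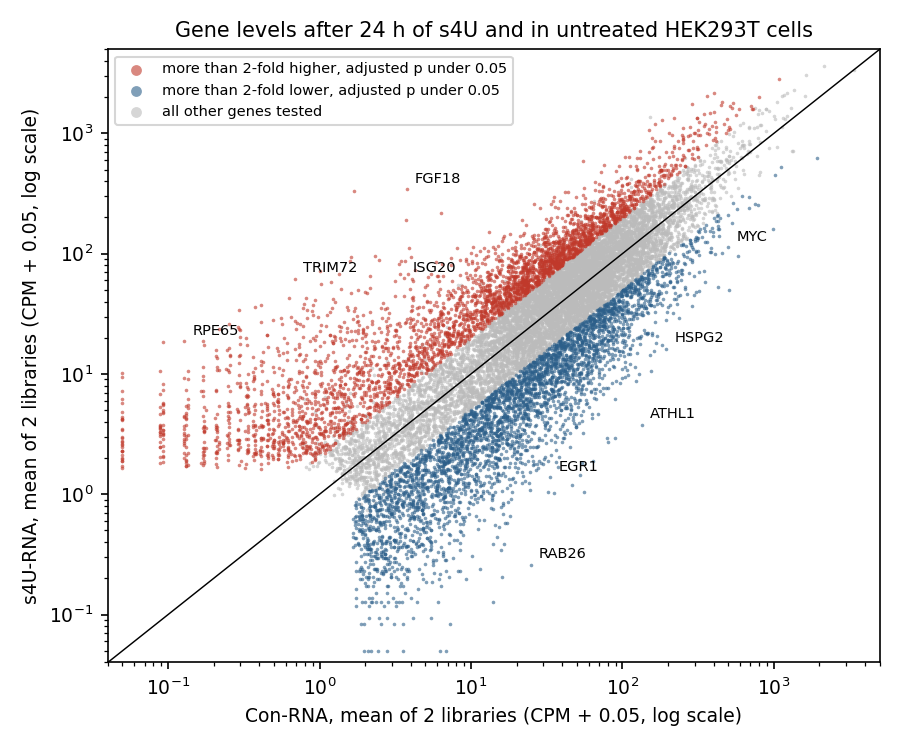
Mean level of each of the 16718 genes tested in s4U-RNA (y axis) and in Con-RNA (x axis), each the mean of 2 libraries in CPM plus 0.05 on log axes, with equal levels on the diagonal. Red marks the 3576 genes more than 2-fold higher and blue the 3968 more than 2-fold lower in s4U-RNA at an adjusted p under 0.05, and grey all others. Genes depart from the diagonal at low as well as high levels.

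Many of the calls concerned genes at the edge of detection in 1 group. There were 910 genes with at least 20 fragments in both s4U-RNA libraries and fewer in both Con-RNA libraries, and 969 with the opposite pattern. Such genes pass the filter only through the group in which they are high. Among the 14073 genes with at least 20 fragments in all 4 libraries, 4965 were higher and 4663 lower, and past 2-fold these counts were 2612 and 2727.

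The protein-coding genes with the largest rises were nearly silent in Con-RNA. FGF18, a secreted fibroblast growth factor (ENSG00000156427.7, GRCh37 chr5:170846660-170884627), had 3721 and 5342 fragments in s4U-RNA, against 49 and 43 in Con-RNA. That is 329 and 363 CPM in s4U-RNA and 3.78 and 3.65 CPM in Con-RNA, a log2 fold change of 6.54 ± 0.14 (SE, n = 2 each, adjusted p = 0.00042). TRIM72, a muscle protein of membrane repair (chr16:31225342-31236510), had 786 and 801 fragments in s4U-RNA and 11 and 5 in Con-RNA. RPE65, the retinoid isomerase of the retinal pigment epithelium (chr1:68894505-68915642), had 180 and 315 fragments in s4U-RNA and 2 and 0 in Con-RNA, a pooled ratio of 235 with a 95% counting interval of 64.8 to 1949. In each, both s4U-RNA libraries lay far above both Con-RNA libraries, and genes whose groups overlapped were not eligible. PVRL4, a nectin of cell junctions, had 370 and 569 fragments in s4U-RNA and 3 and 5 in Con-RNA, ALLC, an allantoicase-like gene, 397 and 593 in s4U-RNA and 6 and 3 in Con-RNA, and WDR49, a WD-repeat gene, 659 and 1258 in s4U-RNA and 5 and 18 in Con-RNA. HHATL, AC135178.1, TPH2, the brain enzyme of serotonin synthesis, the neuronal RNA-binding protein gene ELAVL3, DPYS, dihydropyrimidinase of pyrimidine breakdown, and AQPEP, an aminopeptidase, make up the rest of the 12, with log2 fold changes of 7.05, 6.93, 6.61, 6.52, 6.23 and 5.94. For HHATL the pooled ratio was 142 (48.4 to 693), on 3 Con-RNA fragments in all. Of the 4 noncoding genes with the largest rises, RP11-541G9.1 had 194 and 285 fragments in s4U-RNA and 0 and 1 in Con-RNA, a pooled ratio of 455 (81.4 to 18027). BCYRN1, the primate cytoplasmic RNA BC200, differed between its s4U-RNA libraries, with 7350 and 264 fragments in s4U-RNA and 26 and 15 in Con-RNA, so that its log2 fold change of 7.65 carried an SE of 2.03. The other 2, RP11-469H8.6 and RP11-372K14.2, had 196 to 387 fragments in s4U-RNA libraries and 1 to 3 in Con-RNA libraries.

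The largest falls were in genes with moderate levels in Con-RNA. RAB26, a small GTPase of secretory granules (ENSG00000167964.8, chr16:2190804-2204166), had 4 and 1 fragments in s4U-RNA, against 297 and 312 in Con-RNA, a log2 fold change of −6.93 ± 0.41. ADAMTS7, a secreted metalloprotease, had 1.32 and 0.679 CPM in s4U-RNA and 56.1 and 55.1 CPM in Con-RNA. ATHL1, a glucosidase gene and the most abundant of the group, had 3.36 and 4.14 CPM in s4U-RNA and 138 and 129 CPM in Con-RNA (−5.14 ± 0.15). The groups were separated by more than 10-fold in every one of the 12. PARK2, the ubiquitin ligase parkin, fell by 4.93 on the log2 scale, PRODH, which begins proline breakdown, by 5.53, and NOXA1, an NADPH oxidase activator, had 0.883 and 1.43 CPM in s4U-RNA and 45.5 and 46.9 CPM in Con-RNA. C1orf95, SCUBE1, RHPN1, CACNA1I, CDH22 and TIGD5 fell by 4.97 to 5.26. These 24 coding genes were chosen for passing the threshold with the largest changes and groups that did not overlap. Their adjusted p in edgeR's test, at most 0.00076, therefore adds no separate support. Some, such as RPE65 and RAB26, also passed the filter only through the group in which they were high. Among noncoding genes the antisense RNA C20orf166-AS1 had 2 and 2 fragments in s4U-RNA and 199 and 198 in Con-RNA.

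**Figure D2:**
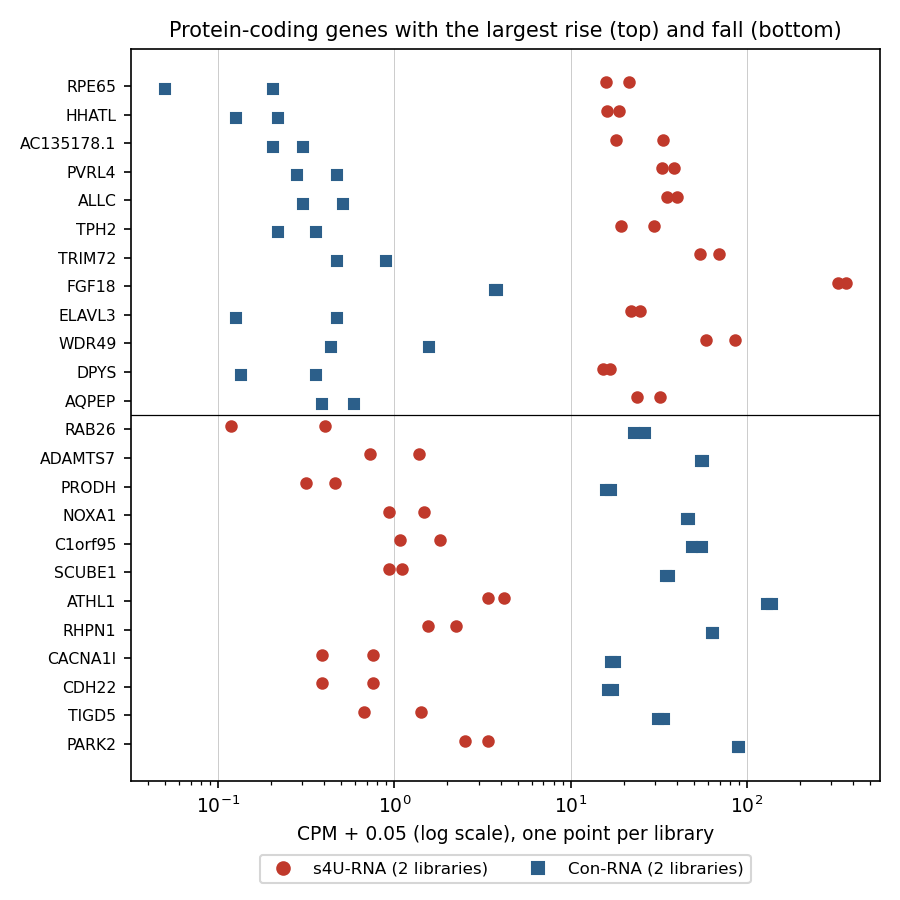
Level of the 12 protein-coding genes with the largest rises (upper block) and the 12 with the largest falls (lower block) in each library, as CPM plus 0.05 on a log axis. Red circles are the 2 s4U-RNA libraries and blue squares the 2 Con-RNA libraries, and in every gene the 2 colours are apart by more than 10-fold.

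Of the 12 coding genes with the largest rises, 10 had the end of a gene with at least 100 fragments on average in Con-RNA within 100 kb upstream on the same strand, and TPH2 and ELAVL3 overlapped one. Within 20 kb the count was 3. Among the 12 with the largest falls 6 had such a neighbour within 100 kb and 0 within 20 kb, and among the 13799 coding genes tested 5878 and 2721 did. FGF18 begins 8.5 kb past NPM1, the nucleolar protein nucleophosmin, RPE65 24.2 kb past DEPDC1, PVRL4 11.0 kb past PFDN2 and ALLC 77.3 kb past RPS7. The neighbours themselves moved far less: DEPDC1 rose by 1.07 on the log2 scale, PFDN2 by 1.52 and RPS7 by 1.02, and NPM1 had a log2 fold change of 0.07 (adjusted p = 0.82). No source used here gives whether introns were counted or whether the counting used strand, so fragments of overlapping genes could be split differently. Only genes with at least 100 fragments on average in Con-RNA counted as neighbours, so other annotated genes may lie in between. The 3′ ends of 5 of these neighbours are shown. Each is a stretch of GRCh37 near the annotated gene end, 5′ to 3′ on the gene's strand, with the poly(A) signal in capitals.
DEPDC1 (chr1:68939835-68939864, minus strand, before RPE65): ctctactgATTAAAactcttttgctatcaa
PFDN2 (chr1:161070349-161070378, minus strand, before PVRL4): ttttgttaATTAAAtgttttggtcagaatc
RPS7 (chr2:3628478-3628507, plus strand, before ALLC): aatgactaAATAAAaagtatatattcacag
PDCD10 (chr3:167401086-167401114, minus strand, before WDR49): aattataaAATAAAgggaaaaaatcagaa
AP3S1 (chr5:115249744-115249773, plus strand, before AQPEP): acaaagtaAATAAAagtatattttatcact

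A position pattern also appeared across the transcriptome, as a description with no test. It was strongest within 20 kb. At that distance 3 of the 12 coding genes with the largest rises, and 2721 of the 13799 coding genes tested, had such an upstream gene end. Genes with fewer than 20 fragments in both Con-RNA libraries were grouped by the distance from the nearest upstream gene end on the same strand, counting genes with at least 100 fragments on average in Con-RNA. Of those within 5 kb, 19.5% of 952 reached 20 fragments in both s4U-RNA libraries. The share was 12.2% at 5 to 20 kb, 5.23% at 20 to 50 kb, 2.39% at 50 to 100 kb and 0.496% of 28251 genes farther away. Measured from an expressed gene's start on the same strand instead, the shares were 5.95%, 4.51%, 3.22%, 2.68% and 1.68% over the same distances, and for divergent neighbours on the other strand 2.37%, 2.54%, 3.80%, 3.49% and 1.76%. Thus the share was 14.6% (429 of 2936) within 20 kb past an expressed gene's end and 0.496% beyond 100 kb. These genes were chosen for low Con-RNA counts, so this measure could only show rises. Scarce genes, with at least 20 fragments in both Con-RNA libraries but a mean under 100, gave the same order with a call: 45.5% were more than 2-fold higher in s4U-RNA within 5 kb, 32.1% at 5 to 20 kb, 18.6% at 20 to 50 kb, 17.9% at 50 to 100 kb and 12.3% beyond, beside the 21.4% of all genes tested. Their median log2 fold change was 0.69 within 5 kb and −0.90 beyond 100 kb. Of scarce genes, 22.1% within 20 kb and 47.4% beyond 100 kb were more than 2-fold lower, beside 23.7% of all genes tested. Beyond 100 kb, the share reaching detection ran from 0.414% to 0.818% with expression limits of 50 or 200 fragments or without any single library. The share of scarce genes more than 2-fold higher there was 7.96% and 16.2% with limits of 50 and 200 fragments.

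Within 20 kb the share that reached detection went with the call of the upstream gene. It was 21.6% of 979 past genes that were higher in s4U-RNA, 17.1% of 849 past genes that were not called and 6.59% of 1108 past genes that were lower. By the upstream gene's Con-RNA level it was 10.3% for the lowest 735 neighbours and 19.1% for the highest 733. Protein-coding genes reached detection in 28.8% of cases, antisense genes in 16.9%, lincRNAs in 14.3% and pseudogenes in 4.84%. A poly(A) signal (AATAAA or ATTAAA, gene's strand only) stood in the last 40 bases of 72.1% of the 11486 coding genes with at least 100 fragments in Con-RNA. The share was 15.1% past upstream genes with such a signal and 14.6% past those without it.

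**Figure D3:**
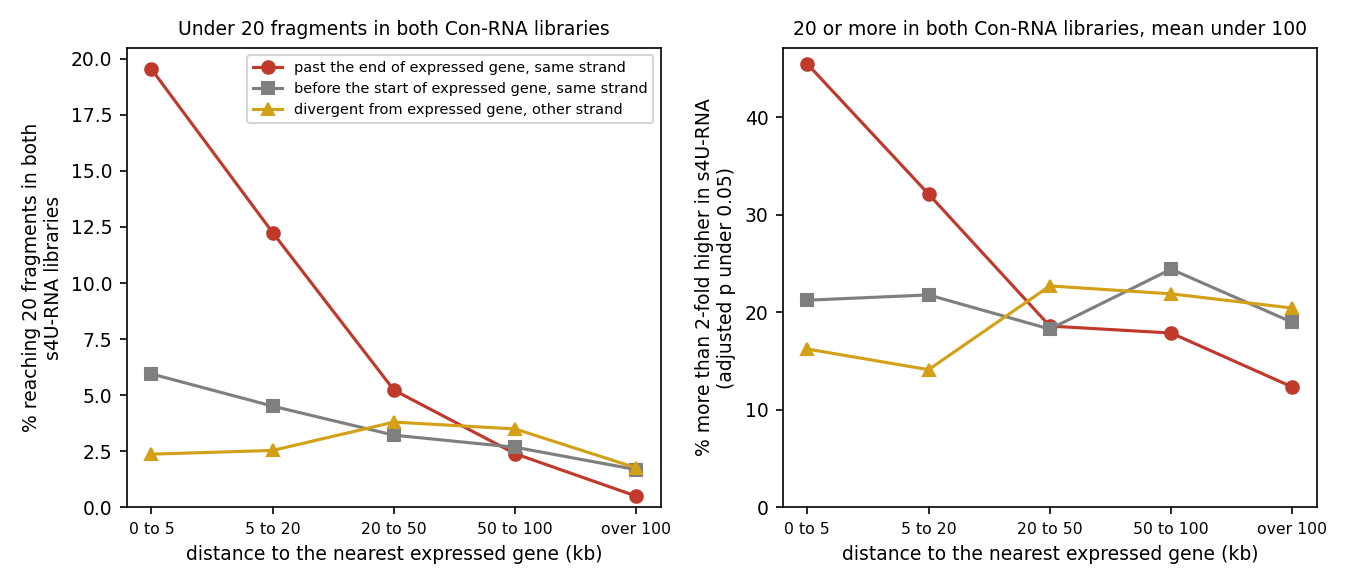
Genes near an expressed gene, by distance from it in kb (x axis) on the same strand past its end (red circles), on the same strand before its start (grey squares), or divergent from it on the other strand (yellow triangles). Left, percentage of genes with under 20 fragments in both Con-RNA libraries that reached 20 in both s4U-RNA libraries, and right, percentage of scarce genes (20 or more in both Con-RNA libraries, mean under 100) more than 2-fold higher in s4U-RNA at an adjusted p under 0.05. Only the red line starts high, at 19.5% and 45.5%, and drops with distance to 0.496% and 12.3%.

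Several gene groups with roles in making RNA and protein were mostly higher in s4U-RNA, but aminoacyl-tRNA synthetases, which charge tRNAs, had 6 higher and 8 lower of 20 (median −0.16). Each list below is described by its counts and its median log2 fold change, beside 35.6% higher, 35.5% lower and a median of 0.03 over all genes tested. Of 79 cytosolic ribosomal protein genes, 74 rose and none fell, with a median of 1.73. RPS28, of the small subunit, had 312 and 327 CPM in s4U-RNA and 149 and 144 CPM in Con-RNA (log2 fold change 1.12 ± 0.11). RPL28, of the large subunit, had 1175 and 760 CPM in s4U-RNA and 278 and 279 CPM in Con-RNA, and the groups did not overlap in either gene. Without Con-RNA replicate 1 only 17 of the 79 passed, and without Con-RNA replicate 2 only 20, while the list's median stayed between 1.05 and 2.12 without any single library. Reads of ribosomal protein genes can be shared with processed pseudogenes, so these values are uncertain. Many of their transcripts begin with C and a run of pyrimidines, the 5′ terminal oligopyrimidine motif, which was searched in RefSeq promoter windows (GRCh38.p14) as C followed by at least 4 C or T near the start, on the gene's strand. It was present in 56 of 64 matched ribosomal protein genes (87.5%), against 26.7% of 27305 genes. These stretches of 30 bases around the start, from RefSeq, show the run in capitals for 3 genes that rose.
RPS28 (chr19:8321481-8321510, plus strand): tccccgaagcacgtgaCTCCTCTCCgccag
RPL28 (chr19:55385917-55385946, plus strand): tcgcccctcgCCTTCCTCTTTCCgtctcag
RPL32 (chr3:12841551-12841580, minus strand): gggttacgacccatcagCCCTTgcgcgcca

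Ribosome assembly factors followed, with 46 of 73 higher, 8 lower and a median of 0.77. IMP4, of the small-subunit processome, had 251 and 217 CPM in s4U-RNA and 58.9 and 54.1 CPM in Con-RNA (2.05 ± 0.13, adjusted p = 0.00049). LYAR, a nucleolar protein, rose by 2.05 and PPAN, of large-subunit assembly, by 1.81. Host genes of small nucleolar RNAs, whose introns carry the guides for rRNA modification, rose in 16 of 17 cases with none lower (median 1.82). SNHG1 had 659 and 422 CPM in s4U-RNA and 72.7 and 77.9 CPM in Con-RNA (2.84 ± 0.26). Translation factors were higher in 24 of 45 cases and lower in 1. EIF5, the GTPase activator of initiation, rose by 2.12 and EIF1, which guards start codon choice, by 1.86, with 590 and 671 CPM in s4U-RNA and 173 and 174 CPM in Con-RNA. The single fall was EIF4G3, a scaffold of the cap-binding complex (−1.33 ± 0.11). There were 29 assembly factors, 13 host genes and 12 translation factors higher without Con-RNA replicate 1, and 30, 13 and 11 without replicate 2.

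The mRNA-making machinery moved the same way in count. Of 53 core spliceosome genes 38 rose and 2 fell (median 0.98). SF3B4, of the U2 particle, had 204 and 238 CPM in s4U-RNA and 48.2 and 49.7 CPM in Con-RNA (2.18 ± 0.12, adjusted p = 0.00046), and BUD31 rose by 2.30. SR proteins and hnRNPs, which set splice choice and package nuclear RNA, rose in 20 of 38 cases with none lower. HNRNPH2 rose by 1.70 and the SR protein kinase CLK1 by 1.50. RNA polymerase II subunits and general factors rose in 34 of 55 cases, against 2 falls. TAF7, a TFIID subunit, had 159 and 161 CPM in s4U-RNA and 32.5 and 31.8 CPM in Con-RNA (2.31 ± 0.09), CCNT1, the cyclin of the elongation factor P-TEFb, rose by 1.58, and the TATA-binding protein gene TBP by 1.54. Without a Con-RNA library 24 and 22 spliceosome genes, 8 and 8 SR and hnRNP genes and 20 and 20 polymerase genes were higher. RNA decay factors were more mixed, with 25 of 50 higher and 6 lower. CNOT2 and CNOT7, of the CCR4-NOT deadenylase, rose by 1.42 and 1.45, and PARN, another deadenylase, fell by 1.64. Without either Con-RNA library 16 of the decay factors were higher and 3 lower.

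Zinc finger genes clustered on chromosome 19, mostly KRAB repressors of transposable elements, were mostly higher. Of 170 measured, 139 were higher and 6 lower, with a median of 1.71. ZNF776 had 67.1 and 69.3 CPM in s4U-RNA and 5.24 and 5.60 CPM in Con-RNA (3.65 ± 0.12, adjusted p = 0.00042). ZNF675 rose by 3.35 and ZNF417 by 3.04. They share similar sequence, so the assignment of fragments among them is uncertain. Without a Con-RNA library 116 and 119 were higher.

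Nuclear genes of mitochondria and of protein turnover were also mostly higher. Of 77 nuclear genes of oxidative phosphorylation 59 rose and 2 fell (median 1.52, or 0.72 without s4U-RNA replicate 1). SDHD, the membrane anchor of succinate dehydrogenase, had 108 and 108 CPM in s4U-RNA and 37.8 and 37.3 CPM in Con-RNA (1.52 ± 0.09, adjusted p = 0.00046). ATP5F1, of ATP synthase, rose by 1.21, whereas NDUFS1, the largest core subunit of complex I, was lower (−0.65 ± 0.09, adjusted p = 0.0033, but 0.053 without Con-RNA replicate 1 and 0.068 without replicate 2). Mitochondrial ribosomal proteins rose in 60 of 76 cases, against 1 fall, and MRPL44 rose by 2.11. Proteasome genes rose in 28 of 37 cases with none lower. PSMC4, an ATPase of the regulatory particle, had 281 and 217 CPM in s4U-RNA and 61.6 and 65.9 CPM in Con-RNA (1.97 ± 0.16). Without a Con-RNA library, the counts higher were 36 and 35 for oxidative phosphorylation, 44 and 41 for mitochondrial ribosomal proteins and 19 and 21 for the proteasome. Genes of the mitochondrial genome were at 0 in all 4 libraries and could not be compared.

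Genes of cell division were mostly higher, and those of DNA replication moved both ways. The paper reports that cells grew less with s4U under this labeling. The part of reduced growth in the changes of these genes was not tested. Of 65 genes of mitosis 45 were higher and 3 lower (median 0.77), and without a Con-RNA library 30 and 30 were higher. TTK, a kinase of the spindle checkpoint, had 109 and 110 CPM in s4U-RNA and 28.3 and 26.6 CPM in Con-RNA (2.0 ± 0.09, adjusted p = 0.00042). CDCA3, which promotes WEE1 degradation, rose by 1.94, and KIF18A, a kinesin that aligns chromosomes, by 1.75. Of 58 replication and G1/S genes 21 were higher and 13 lower (median 0.19), or 11 and 7 without Con-RNA replicate 1 and 10 and 8 without replicate 2. The difference between the lists was not tested. GINS3, of the replicative helicase, rose by 1.70, and CCNE1, cyclin E1, fell by 2.48, with 4.15 and 3.46 CPM in s4U-RNA and 22.3 and 19.9 CPM in Con-RNA. The transcription factor E2F1 fell by 0.99. G1 cyclins and CDK inhibitors had 6 of 16 higher and 4 lower (median 0.43), and 0 higher without either Con-RNA library. The CDK inhibitor genes CDKN1C and CDKN1A fell by 2.96 and 1.25, and the pocket protein gene RBL2 by 2.16. Replication-dependent histone genes, whose mRNAs normally lack a poly(A) tail, had 12 higher and 3 lower of 31, but 25 higher without s4U-RNA replicate 2 and 7 and 6 without a Con-RNA library. HIST1H2BK rose by 2.41 and HIST1H1D fell by 5.23.

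**Figure D4:**
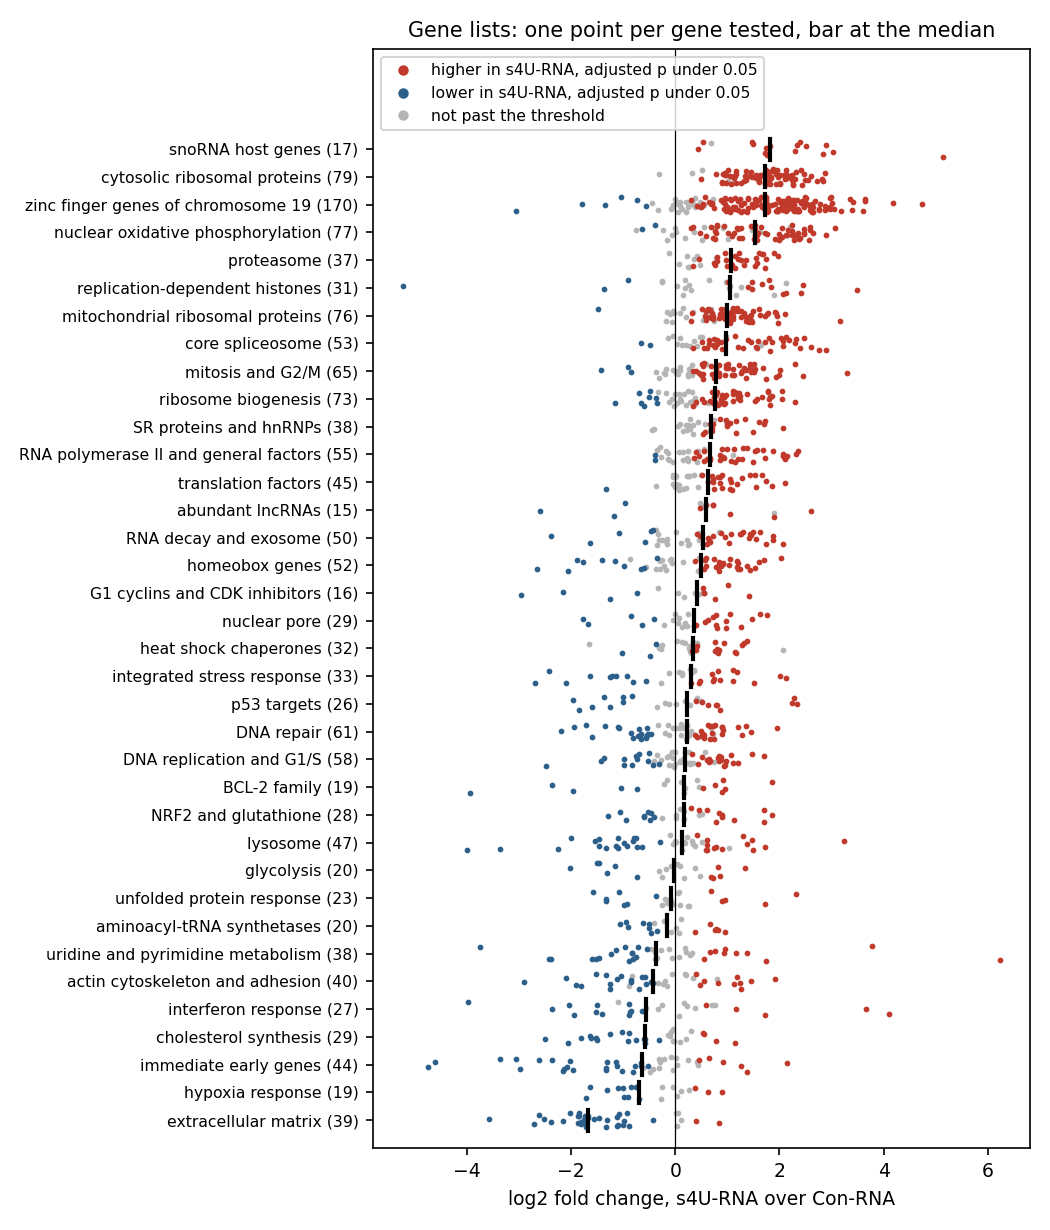
Log2 fold change, s4U-RNA over Con-RNA (x axis), of each gene tested in 36 gene lists, with the number tested in brackets and a black bar at the list's median. Red points are higher and blue points lower at an adjusted p under 0.05, and grey points did not pass. Lists of ribosome, splicing, mitochondrial and proteasome genes lie mostly right of 0, and the extracellular matrix list lies mostly left of it, with a median of −1.68.

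Extracellular matrix genes were mostly lower. Of 39 measured, 33 were lower and 2 higher (median −1.68, or −1.06 with an offset for GC content), and 31 to 33 were lower without any single library. HSPG2, the basement membrane proteoglycan perlecan (ENSG00000142798.12, chr1:22148738-22263790), had 14.4 and 18.0 CPM in s4U-RNA and 194 and 196 CPM in Con-RNA (−3.58 ± 0.15, adjusted p = 0.00042). COL4A1, a chain of basement membrane collagen, had 15.7 and 15.3 CPM in s4U-RNA and 95.4 and 94.6 CPM in Con-RNA (−2.62 ± 0.10). THBS3 fell by 2.52 and COL5A1 by 2.39, and the groups did not overlap in any of the 4. The fibroblast marker sum given above, mostly the matrix gene COL1A1 itself, was lower in s4U-RNA too, and its part in these falls was not tested. The actin and adhesion list moved both ways, with 18 of 40 lower and 10 higher, but 10 lower without either Con-RNA library. The integrin genes ITGA3 and ITGA5 fell by 2.90 and 1.26, and VCL, vinculin, by 1.81. The 10 risers of that list became 2 without either Con-RNA library. Tubulin genes were lower in 6 of 12 cases and higher in 2, with TUBB4A and TUBB2B lower by 1.99 and 2.07, and TUBB3 higher by 2.64.

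Immediate early genes, the transcription factors induced first by growth signals, were lower in 23 of 44 cases and higher in 6 (median −0.64, or −0.35 with the GC offset). EGR1 (ENSG00000120738.7, chr5:137801179-137805004) had 15 and 20 fragments in s4U-RNA, against 431 and 394 in Con-RNA, or 1.32 and 1.36 CPM in s4U-RNA and 33.2 and 33.4 CPM in Con-RNA (−4.62 ± 0.15, adjusted p = 0.00042). FOS, JUND, JUNB and FOSB fell by 3.36, 3.07, 2.99 and 2.61. MYC, the growth-regulating transcription factor, had 111 and 115 CPM in s4U-RNA and 498 and 499 CPM in Con-RNA (−2.14 ± 0.12). Cholesterol synthesis genes were lower in 16 of 29 cases and higher in 4, with 9 and 8 lower without a Con-RNA library. INSIG1, a sterol sensor of the endoplasmic reticulum, had 40.6 and 40.9 CPM in s4U-RNA and 170 and 170 CPM in Con-RNA (−2.06 ± 0.09), and SQLE, squalene epoxidase, fell by 2.50. Hypoxia response genes were lower in 10 of 19 cases and higher in 3. NDRG1 fell by 1.63 and VEGFA, the vascular growth factor, by 0.91, while the mitophagy receptor gene BNIP3L rose by 0.91. Without Con-RNA replicate 1 or 2, immediate early genes had 18 or 17 members lower and 3 or 4 higher, hypoxia genes 7 or 8 lower and 1 higher, and 1 cholesterol gene was higher.

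Most stress lists split in both directions, as did all genes tested, of which 35.6% were higher and 35.5% lower. Integrated stress response genes were higher in 14 and lower in 10 of 33 cases. PPP1R15A, which reverses eIF2α phosphorylation, had 104 and 74.5 CPM in s4U-RNA and 23.0 and 21.1 CPM in Con-RNA (2.01 ± 0.19, adjusted p = 0.0011). CHAC1, PCK2 and ALDH1L2, which act in glutathione, gluconeogenic and folate metabolism, fell by 2.43, 2.69 and 2.09. Of this list 42.4% was higher and 30.3% lower, so it split much as all genes tested did. Unfolded protein response genes were higher in 5 and lower in 7 of 23 cases, with DNAJB9, an ER co-chaperone, at 44.9 and 18.2 CPM in s4U-RNA and 6.32 and 6.20 CPM in Con-RNA, and EDEM1, of ER-associated decay, lower by 1.58. Known targets of p53 were higher in 9 and lower in 8 of 26 cases. AEN, an apoptosis nuclease, had 330 and 390 CPM in s4U-RNA and 74.0 and 74.8 CPM in Con-RNA (2.27 ± 0.13), whereas BTG2 fell by 1.96 and XPC by 1.59. Heat shock genes were higher in 14 and lower in 3 of 32 cases. Interferon response genes were lower in 12 and higher in 5 of 27 cases, and PARP9, a mono-ADP-ribosyltransferase family gene, fell by 2.04. The risen ISG20 had 613 and 1033 fragments in s4U-RNA and 60 and 30 in Con-RNA, and lies 3.9 kb past the end of AEN. IFI35, another riser, had 501 and 665 fragments in s4U-RNA and 35 and 52 in Con-RNA, and lies 3.8 kb past the end of RPL27, which rose by 2.20. These counts fell without either Con-RNA library: 4 integrated stress response genes were higher and 9 lower, 1 unfolded protein response gene was higher and 5 were lower, 6 p53 targets were higher, and 3 or 4 heat shock genes were higher and 1 lower. Interferon genes then had 9 lower and 3 or 4 higher. Without s4U-RNA replicate 1, 9 heat shock genes and 12 unfolded protein response genes were lower, and 15 integrated stress response genes were lower without s4U-RNA replicate 2.

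Genes that handle uridine and other pyrimidines were higher in 10 and lower in 16 of 38 cases (median −0.37). SLC29A2, a nucleoside transporter of the plasma membrane, had 191 and 290 fragments in s4U-RNA and 1233 and 1207 in Con-RNA (−2.43 ± 0.12, adjusted p = 0.00043). CDA, cytidine deaminase, fell by 2.38, and TK2, the mitochondrial thymidine kinase, by 3.75. RRM2, the small subunit of ribonucleotide reductase, fell by 0.84. SLC28A1, a concentrating nucleoside transporter, was rare in both groups, with 56 and 92 fragments in s4U-RNA and 6 and 4 in Con-RNA. The list had 6 higher and 14 lower without Con-RNA replicate 1, and 7 and 14 without replicate 2.

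Of the genes the study names for labeling, EIF1 rose, as given above, and CCND1 did not pass. CCND1, cyclin D1, had 138 and 151 CPM in s4U-RNA and 132 and 127 CPM in Con-RNA (0.16 ± 0.10, adjusted p = 0.22), and its sign turned without a composition factor (−0.11) and with all fragments as library size (−0.16). Of the 6 long-lived transcripts, MYH9 was lower (−1.04 ± 0.13, adjusted p = 0.0020) and MSN higher (0.39 ± 0.10, adjusted p = 0.022), and neither passed without Con-RNA replicate 1 (adjusted p = 0.053 and 0.25) or without replicate 2 (0.054 and 0.30). APLP2, FLNA, CRTAP and PRDX5 did not pass, with log2 fold changes of −0.30, −0.83, 0.02 and 0.72. FLNA had 322 and 580 CPM in s4U-RNA and 803 and 800 CPM in Con-RNA, a gap between its s4U-RNA libraries larger than any in Con-RNA.

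Fragments with at least 1 mismatch are called marked here, and the mismatches, whose type is unnamed in the tables, were taken as T-to-C. They made up 14.0% and 11.0% of all fragments in s4U-RNA, against 9.18% and 8.96% in Con-RNA. The means were 12.5% ± 2.1 in s4U-RNA and 9.07% ± 0.16 in Con-RNA (SD, n = 2 each), a difference of 3.41 percentage points. The 95% Wilson intervals were 13.95% to 13.99% and 10.98% to 11.01% in s4U-RNA and 9.16% to 9.19% and 8.94% to 8.97% in Con-RNA, and cover counting error only. Both s4U-RNA libraries lay above both Con-RNA libraries, but 2 against 2 cannot go below p = 0.333 in the exact two-sided permutation test, which is the value found. Mismatch sites that recurred in control samples had been dropped from all samples, and the effect of that filter on the difference was not tested. Within genes the shares were 12.96% and 10.1% in s4U-RNA and 7.61% and 7.35% in Con-RNA. Outside genes the order was the opposite, with 20.1% and 17.5% in s4U-RNA and 24.3% and 24.5% in Con-RNA, a difference of −5.61 points with the same smallest possible p. Fragments with at least 2 mismatches made up 3.00% and 1.92% of all fragments in s4U-RNA and 1.77% and 1.69% in Con-RNA.

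Within genes, the rise of the marked share was spread over most of them. Of 8619 genes that had 200 or more fragments in every library, 7927 (92.0%) had both s4U-RNA shares above both Con-RNA shares, and the median rise was 4.14 points (interquartile range 3.22 to 5.09). In the quasi-likelihood fit of marked against unmarked fragments, 4828 of 14073 genes (34.3%) had a higher share in s4U-RNA and 3 a lower one. This count depended on single libraries: it was 4685 without s4U-RNA replicate 1, 9085 without s4U-RNA replicate 2, 0 without Con-RNA replicate 1 and 1 without Con-RNA replicate 2. Shares were close in genes that rose, fell or were not called. Medians were 12.7% and 9.90% in s4U-RNA and 7.32% and 6.95% in Con-RNA for genes more than 2-fold higher, and 12.6% and 10.0% in s4U-RNA and 7.47% and 7.24% in Con-RNA for genes more than 2-fold lower. Genes that were not called had 12.7% and 9.94% in s4U-RNA and 7.31% and 6.96% in Con-RNA. Across 8492 genes with known transcript base content, not only coding ones, the rise went weakly with U content, at a Spearman's rho of 0.28. It went against GC content, at −0.31, a description over genes that are not independent.

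The 5 genes with the largest rise of the share had high shares in Con-RNA as well. CYBA, the p22phox subunit of NADPH oxidase, was marked in 68.8% and 52.3% of its fragments in s4U-RNA and 39.8% and 40.6% in Con-RNA. MAP1LC3B, the autophagy protein LC3B, was marked in 42.7% and 23.3% in s4U-RNA and 15.8% and 14.7% in Con-RNA. NDUFV2, of complex I, was marked in 50.9% and 23.0% in s4U-RNA and 21.2% and 17.5% in Con-RNA. In each of these, s4U-RNA replicate 1 stood highest. CCT5, a chaperonin subunit, was marked in 45.3% and 24.7% in s4U-RNA and 16.8% and 17.7% in Con-RNA, and JAGN1, an ER protein, in 43.6% and 29.9% in s4U-RNA and 20.3% and 19.7% in Con-RNA.

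**Figure D5:**
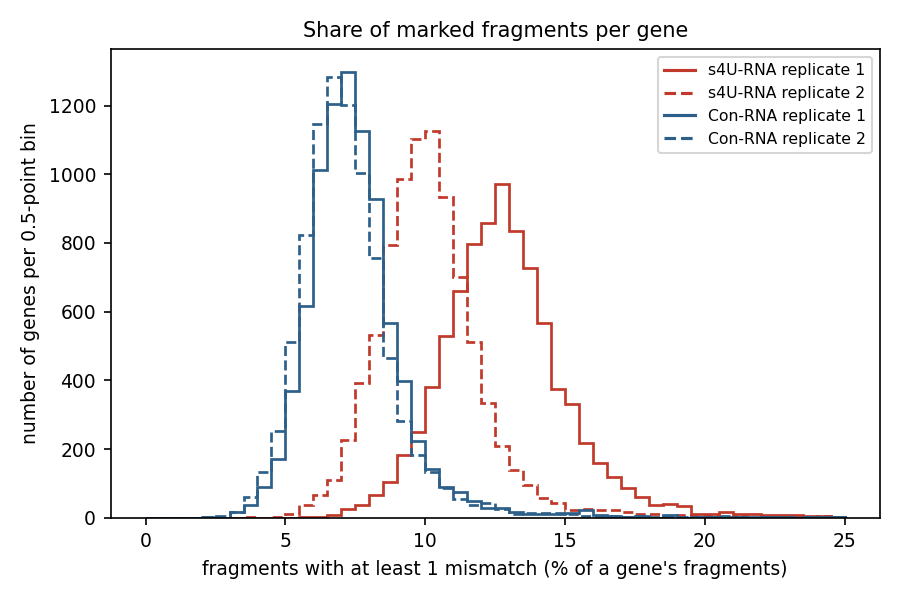
Number of genes (y axis, bins of 0.5 percentage points) by the percentage of a gene's fragments that carry at least 1 mismatch (x axis, drawn to 25%), for the 8619 genes that had 200 or more fragments in every library. Red lines are s4U-RNA and blue lines Con-RNA, solid for replicate 1 and dashed for replicate 2. The blue curves nearly coincide, and both red curves lie to their right and apart from each other.

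Fold changes went with several properties of the transcripts. Over 11486 coding genes with at least 100 fragments in Con-RNA, Spearman's rho of the log2 fold change was −0.28 with GC content, 0.27 with U content, −0.25 with the number of exons and −0.20 with transcript length, as descriptions over genes that share their libraries. The 2273 genes of lowest GC content had a median of 0.33 and the 2273 of highest GC content one of −0.72. Genes with 1 to 4 exons had a median of 0.33, and those with 18 or more −0.49. The share of a gene's fragments that carried a mismatch after 24 h of s4U and acrylonitrile gave a rho of 0.28, with a median of −0.27 over the lowest 2189 genes and 0.59 over the highest 2189. The same share after 1 h of s4U gave a rho of 0.08, and of −0.001 with the fold change of the acrylonitrile contrast. By gene class, 322 of 843 lincRNAs (38.2%) and 302 of 885 antisense genes (34.1%) were more than 2-fold higher, against 19.2% of protein-coding genes. More than 2-fold lower were 23.4% of lincRNAs, 25.2% of antisense genes and 23.9% of protein-coding genes. These counts include genes that passed the filter only through the group in which they were high. The named lncRNAs moved both ways: NEAT1, the scaffold of paraspeckles, had 73.3 and 43.7 CPM in s4U-RNA and 357 and 346 CPM in Con-RNA (−2.59 ± 0.27, adjusted p = 0.0014), and TUG1 rose by 1.89.

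The acrylonitrile-treated libraries gave a second contrast of cells with and without s4U that shares no library with the first. Labels give 500 µM s4U for s4U-acrylonitrile-RNA and 50 µM for s4U-RNA, while the protocol gives 50 µM for 24 h of labeling, and whether the RNA came from the same cultures is not stated. Of 14801 genes tested, 5552 (37.5%) were higher in s4U-acrylonitrile-RNA than in Con-acrylonitrile-RNA and 5510 (37.2%) lower. Over 14469 genes tested in both, the log2 fold changes correlated at r = 0.93. Of the 3576 genes more than 2-fold higher in s4U-RNA, 2985 were tested there, and 2841 (95.2%) were higher and 4 lower. Of the 3189 tested there among genes more than 2-fold lower, 3093 (97.0%) were lower and 13 higher. FGF18 had 233 and 316 CPM in s4U-acrylonitrile-RNA and 6.56 and 7.36 CPM in Con-acrylonitrile-RNA. EGR1 had 1.28 and 2.94 CPM in s4U-acrylonitrile-RNA and 57.0 and 56.8 CPM in Con-acrylonitrile-RNA, and HSPG2 had 50.7 and 50.0 CPM in s4U-acrylonitrile-RNA and 388 and 379 CPM in Con-acrylonitrile-RNA. In all 3 the direction was that in untreated RNA. List medians there were 1.99 for cytosolic ribosomal proteins, 1.44 for the chromosome 19 zinc fingers, −0.85 for immediate early genes and −0.87 for the extracellular matrix. In the acrylonitrile contrast and in the main one, medians were 0.20 and 1.06 for histones and −0.07 and −0.57 for the interferon response. The sign was the opposite for p53 targets (−0.12 and 0.23), DNA repair (−0.03 and 0.23), the BCL-2 family (−0.09 and 0.17), aminoacyl-tRNA synthetases (0.37 and −0.16), glycolysis (0.45 and −0.02) and the long-lived transcripts (0.41 and −0.14). These differences were not tested.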

How the data were processed

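Polyadenylated RNA of HEK293T cells was sequenced from a directional kit. Per the labels and the methods, the authors trimmed reads (cutadapt 1.18), reduced reads of identical sequence to 1, filtered out rRNA with bowtie2 and aligned to GRCh37 (HISAT2 2.1.0), keeping proper, unique pairs. Mismatches at polymorphisms, including new ones seen at a count of at least 5 and a share of at least 5% in controls, or below a base quality of 41, were dropped. Removal of identical reads limits the counts of abundant genes. The deposited tables hold raw fragment counts per GENCODE v19 gene, and per library, for each number of mismatches. No source used here names the counting tool. Gene names come from the deposited FPM tables, and those values were not used otherwise.

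Counts were summed per gene and tested with edgeR's quasi-likelihood test after TMM normalization, on the 4 libraries alone, with Benjamini-Hochberg adjustment over all genes tested. CPM are scaled by TMM library sizes. The same test was run on marked against unmarked fragments for genes that had 20 or more fragments in every library. No pairing by replicate number was seen in gene levels (r of deviations −0.01). The Con-RNA deviations were close to counting noise, so this check could hardly have shown one. On simulated counts of 15804 genes with planted changes, 7.46% of 1.5-fold, 65.2% of 2-fold and 100% of 4-fold changes were called, with 6 false calls. In the fit of marked shares, 19 of 200 genes planted at a share of 13% against 7% were called among 14073 genes, and 0 others. Both simulations changed few genes and gave every library the same spread. In the data most genes were called, and chi-square per degree of freedom was 64.3 in s4U-RNA and 1.07 in Con-RNA. The simulated rates therefore need not hold for these data. Transcript length, base content and exons come from the longest transcript of each gene in GENCODE v44lift37. Members and lists were chosen with earlier results of these data known. Named genes are the 12 coding and 4 noncoding genes with the largest rise and fall among those that passed, with a mean of at least 100 fragments and groups that did not overlap, up to 6 members per list by smallest p, genes the study names, and the 5 with the largest rise of the marked share. Alternatives covered normalization, filters, DESeq2 and limma-voom, the replicate block, GC offsets, and each library left out. The software was Matplotlib 3.10.9, Python 3.11.15 with SciPy 1.17.1, pandas 2.3.3 and NumPy 2.4.6, and R 4.3.3 with DESeq2 1.42.0, limma 3.58.1 and edgeR 4.0.16.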

Additional observations from a re-analysis of the deposited data

Results flagged for a closer look

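TUBA1A, an alpha-tubulin gene, moved in opposite directions in the 2 contrasts of cells with and without s4U. It had 22.4 and 25.3 CPM in s4U-RNA and 49.1 and 47.4 CPM in Con-RNA, a log2 fold change of −1.01 (adjusted p = 0.0016). In acrylonitrile-treated RNA it had 47.5 and 34.6 CPM in s4U-acrylonitrile-RNA and 26.1 and 19.5 CPM in Con-acrylonitrile-RNA, a log2 fold change of 0.84 (adjusted p = 0.00048). Every library with s4U lay below those without it in the first contrast and above them in the second, and the difference between the contrasts was not tested. Tubulin genes are near-identical copies, so how fragments were split among them is uncertain.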

How the results depend on the processing

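The 262 named genes and 37 lists were recomputed under 17 alternatives, except that 3 of the named genes had no value in the fits with a GC offset. Over the named genes, 4321 values kept direction and side of the threshold, 82 no longer passed, 24 newly passed and 21 turned sign. Leaving out 1 library gave 3693 to 7235 genes higher, 4216 to 7326 lower, 3173 to 3858 more than 2-fold higher, 3701 to 4350 more than 2-fold lower, 0 to 9085 with a higher marked share, and differences in marked share of 1.92 to 4.90 points over all fragments and 2.65 to 5.48 points in genes. With the Con-RNA libraries summed as 1 library, an alternative chosen after seeing the data as were those on position, 3722 genes were higher and 4412 lower. At 2 or more mismatches 3 genes had a higher share, and the differences were 0.728 and 0.989 points.

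With the replicate block 5756 genes were higher and 5746 lower, and 6761 had a higher marked share; it added no sign change. CCND1 turned to −0.11 without a composition factor and −0.16 with all fragments as library size. CRTAP turned to −0.13 with upper-quartile scaling, −0.25 without a composition factor, −0.30 with all fragments, −0.097 with the GC offset, −0.098 with the GC offset and block and −0.00127 with Con-RNA summed. CYBA turned to −0.051, −0.193 and −0.256 and CCT5 to −0.023, −0.146 and −0.203 under those 3 scalings, and CCT5 to −0.038 with the GC offset, with or without the block. None of these 4 genes passed the threshold in the 4-library fit. Leaving out 1 library, CRTAP ran from −0.066 to 0.073, PRDX5 from −0.117 to 1.21, CYBA from −0.488 to 0.484 and NDUFV2 from −0.025 to 0.884, with the lowest values without s4U-RNA replicate 1, or replicate 2 for CRTAP. List medians turned for the integrated stress response (−0.035 with all fragments), p53 targets (−0.048 without a composition factor, −0.106 with all fragments) and, under those 2 scalings, DNA repair (−0.038 and −0.094), DNA replication and G1/S (−0.071 and −0.126), NRF2 and glutathione (−0.096 and −0.152), the BCL-2 family (−0.100 and −0.157) and the lysosome (−0.128 and −0.184, and −0.009 with upper-quartile scaling). Leaving out 1 library, the medians ran from −0.051 to 0.303 for the integrated stress response and from −0.135 to 0.281 for p53 targets, the lysosome turned to −0.164 without s4U-RNA replicate 2, and glycolysis (−0.023) turned to 0.081 without s4U-RNA replicate 1 and 0.002 without Con-RNA replicate 2. With the GC offset the median was 0.17 for G1 cyclins and CDK inhibitors, 0.32 for RNA decay, 0.17 for the nuclear pore, 0.35 for abundant lncRNAs, −0.15 for tubulins and 0.54 for the 3 neuronal markers tested, against 0.43, 0.53, 0.36, 0.59, −0.43 and −1.46. Of the recomputed list medians 443 moved by at most the SD between the s4U-RNA libraries and 179 by more, and 7 turned sign where the median had been at least 0.2 in size, those of the integrated stress response, p53 targets and DNA repair. The causes were not tested. With 2 libraries per group, changes under 2-fold often go uncalled.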

Other observations

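Homeobox genes, which set the regional identity of cells, were higher in 27 of 52 cases and lower in 10. HOXA9 had 161 and 158 CPM in s4U-RNA and 61.6 and 56.2 CPM in Con-RNA (1.44 ± 0.10, adjusted p = 0.00059), and the kidney factor PAX2 had 4.33 and 4.42 CPM in s4U-RNA and 26.9 and 28.3 CPM in Con-RNA (−2.65 ± 0.14). DNA repair genes split, with 24 of 61 higher (39.3%) and 19 lower (31.1%), beside 35.6% and 35.5% of all genes tested. UNG, which removes uracil from DNA, rose by 1.95, while BRCA2, of homologous recombination, fell by 1.70 and RAD51B by 2.19. Nuclear pore genes were higher in 15 of 29 cases and lower in 5, with RAE1 higher by 1.76 and NUP210 lower by 1.77. Without Con-RNA replicate 1 or 2, 14 or 16 homeobox genes, 7 or 9 DNA repair genes and 8 nuclear pore genes were higher, 9 DNA repair genes and 3 aminoacyl-tRNA synthetase genes were lower, and 2 or 1 of these genes were higher.

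Lysosomal genes also split, with 14 of 47 higher (29.8%) and 19 lower (40.4%), beside 35.6% and 35.5% of all genes tested. ATP6V0D1, of the proton pump, and LAMP1, a membrane protein, rose by 1.73 and 1.39, and IDUA and NAGLU, which encode hydrolases, fell by 4.00 and 3.36. Glycolysis genes were higher in 5 and lower in 6 of 20 cases, with the phosphofructokinase genes PFKP and PFKL lower by 1.47 and 1.51 and PGAM1 higher by 1.34. In the BCL-2 family 6 of 19 were higher and 5 lower: the killer BAK1 had 122 and 130 CPM in s4U-RNA and 34.6 and 34.7 CPM in Con-RNA (1.86 ± 0.09), and BOK and BMF fell by 3.94 and 1.95. NRF2 and glutathione genes had 11 of 28 higher and 9 lower, with GSR, glutathione reductase, lower by 1.06. Of the 15 abundant lncRNAs 7 were higher and 3 lower. Without Con-RNA replicate 1 or 2, 8 or 9 lysosomal genes, 1 glycolysis gene, 3 or 4 of the BCL-2 family, 2 or 4 NRF2 genes and 2 lncRNAs were higher. Without s4U-RNA replicate 1, 24 lysosomal and 10 glycolysis genes were higher, and without s4U-RNA replicate 2, 12 glycolysis genes were lower.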
